A study of Mus musculus with 16 samples.

Results

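Cytotoxic T cells and NK cells kill by releasing the content of secretory granules onto a target cell, and the 9 genes described here encode granule proteins or guard against them: Gzma, Gzmb, Gzmk, Gzmm, Prf1, Nkg7, Ctsw, Serpinb6b, and Serpinb9. They were taken as a named list, 9 of the 32285 genes listed in any of the 9 matrices of CD8+ T cells, and all 9 were present in each of those matrices. Their UMIs (transcript molecules counted by a molecular tag) were summed per library and are given per 1000000 UMIs of that library (CPM) and as the share of cells with at least 1 UMI. Perforin, the product of Prf1, forms pores in the membrane of the target, and granzymes are serine proteases that enter through them and cleave proteins inside the cell. Granzyme A cleaves after basic residues and granzyme B after aspartate, and the latter activates caspases. Granzyme K has a tryptase-like and granzyme M a methionine-directed specificity. Nkg7 encodes a membrane protein of the granules that supports their release, Ctsw encodes cathepsin W, a papain-like cysteine protease of T and NK cells, and Serpinb9 encodes an inhibitor of granzyme B that protects the cells that carry it. Serpinb6b belongs to the same family of intracellular serine protease inhibitors.

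Single-cell RNA-seq was run on sorted viable CD45+ cells of male mice with a droplet 3′ kit. Accepted grafts were DBA/2J kidneys in C57BL/6 (B6) recipients that received no immunosuppression, sampled with the recipient's spleen at 1, 3, and 24 weeks. Rejecting grafts were B6 kidneys in DBA/2J recipients, sampled with the recipient's spleen at 1 week, and naive spleen came from mice without a graft. The authors deposited, for each condition, the cells they had called CD8+ T cells. The strain label is C57BL/6J and the genotype label wild type for every sample, whereas by the study's design rejecting recipients were DBA/2J, so that strain and outcome cannot be told apart between rejecting and accepted grafts. Libraries were told apart by a tag in the cell barcodes: 5 of naive spleen, 3, 5, and 3 of accepted kidney at 1, 3, and 24 weeks, the same numbers of recipient spleen, 2 of rejecting kidney, and 3 of rejecting recipients' spleen. The paper counts 3, 5, and 3 biological replicates at 1, 3, and 24 weeks, as many as the tags of accepted recipients. Nothing in the labels ties a tag to a mouse, so p-values measure the spread between these libraries, which may be technical.

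Promoter sequences are shown for the members on which the comparisons turn. RefSeq starts (GRCm38.p6) were matched for 8 of the 9 genes, all but Ctsw. Of the 250 bases upstream of those starts, 4 are printed: Gzmb and Prf1, a granzyme and the pore protein that parted in the spleen, Nkg7, the one promoter with the T-box letters, and Gzmm, the granzyme that moved against the others. Capitals mark TGTGGT or its complement ACCACA (Runx), AGGTGTGA (T-box), and TGACTCA or TGAGTCA (AP-1), searched on both strands, and no match overlapped another. The 4 regions are chr14:56262335-56262584 on the minus strand for Gzmb, chr10:61297586-61297835 on the plus strand for Prf1, chr7:43436888-43437137 on the plus strand for Nkg7, and chr10:79688770-79689019 on the plus strand for Gzmm.
Gzmb: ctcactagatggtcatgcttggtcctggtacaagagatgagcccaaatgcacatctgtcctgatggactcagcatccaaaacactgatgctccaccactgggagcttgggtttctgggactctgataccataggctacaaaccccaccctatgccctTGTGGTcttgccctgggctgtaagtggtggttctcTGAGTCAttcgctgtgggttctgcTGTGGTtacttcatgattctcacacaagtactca
Prf1: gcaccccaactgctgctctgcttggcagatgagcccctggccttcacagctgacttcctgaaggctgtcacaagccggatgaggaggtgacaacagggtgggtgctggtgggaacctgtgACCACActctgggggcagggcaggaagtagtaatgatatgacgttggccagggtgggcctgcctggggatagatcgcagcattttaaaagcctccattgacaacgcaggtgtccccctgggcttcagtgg
Nkg7: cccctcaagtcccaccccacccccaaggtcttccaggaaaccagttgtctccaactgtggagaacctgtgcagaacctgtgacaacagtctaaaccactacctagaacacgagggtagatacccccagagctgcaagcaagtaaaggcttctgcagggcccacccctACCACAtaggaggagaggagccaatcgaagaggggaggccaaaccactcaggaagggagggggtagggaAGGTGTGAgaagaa
Gzmm: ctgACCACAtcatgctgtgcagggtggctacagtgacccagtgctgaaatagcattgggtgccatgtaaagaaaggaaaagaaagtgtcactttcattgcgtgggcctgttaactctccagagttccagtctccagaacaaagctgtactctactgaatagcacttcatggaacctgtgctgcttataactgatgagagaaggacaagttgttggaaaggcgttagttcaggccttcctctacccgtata

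The Runx letters stood in 5 of the 8 promoters and in 13.96% of 32536 distinct promoters of the same length. They began 93 and 34 bases before the start of Gzmb, 130 before that of Prf1, 83 before that of Nkg7, 247 before that of Gzmm, and 50 before that of Gzma (chr13:113100982-113101231, minus strand). The T-box letters stood in Nkg7 and in 1.125% of all promoters, and the AP-1 letters in Gzmb and in 4.454%. These are matches of letters and no binding was measured. The listed start of Gzmk lies 44943 bases, and that of Serpinb9 1291 bases, from the gene start in the annotation used for positions. Those of Gzmb, Nkg7, and Serpinb6b lie 74, 65, and 52 bases from it. By that annotation the T-box letters of Nkg7, which begin 14 bases before the listed start, are inside the gene. Of the 9 genes, Gzma (chromosome 13, 113093825 to 113100981) and Gzmk (113171608 to 113225908) are neighbors with 70626 bases and 0 protein-coding genes between them. Serpinb6b (chromosome 13, 32965209 to 32979067) and Serpinb9 (33003250 to 33017957) are neighbors as well, 24182 bases apart. Gzmb, Gzmm, Prf1, Nkg7, and Ctsw lie on chromosomes 14, 10, 10, 7, and 19. Reads of granzymes and of serpins can be shared with closely related copies, and how the authors' counting split such reads is not given in the sources used here.

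The 9 matrices held 72639 cells in 32 libraries with 153266 to 25960721 UMIs per library, and libraries shared at most 21 barcodes. The rejecting spleen library 2 was the smallest, with 56 cells. The CD8 label was checked by UMIs of Cd8a or Cd8b1. They were found in 83.5% to 97.0% of cells in accepted kidneys at 1 and 3 weeks, 95% to 97.6% in naive spleen, 76.6% to 78.1% in rejecting kidneys, and 100% in spleens of rejecting recipients, but in only 41.9% to 51.8% in recipient spleens at 1 and 3 weeks, where 10.7% to 24.8% of cells held a Cd4 UMI. At 24 weeks the spleen label had 93.4% to 95.3% and the kidney label 46.2% to 49.2%. Of 20 genes of kidney parenchyma, 15 and 19 were higher under the kidney label at 1 and 3 weeks, but 1 was at 24 weeks, when 13 were higher under the spleen label. The libraries of 24 weeks are therefore named by their labels, and no change over time is drawn from them. In these sums fewer cells with a transcript and less RNA per cell cannot be told apart.

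Granzyme levels spanned the widest range over the 9 conditions. The highest condition mean of Gzmb was 640 times the lowest, against 52.3 times for Gzmk, 34.5 for Gzma, 34.3 for Gzmm, 12.6 for Nkg7, 10.9 for Serpinb9, 8.40 for Prf1, 6.18 for Serpinb6b, and 5.70 for Ctsw. Gzmb measured 1280 ± 416 CPM (SD, n = 2) in rejecting kidneys, 858 ± 126 (n = 5) and 731 ± 84.8 (n = 3) in accepted kidneys at 3 and 1 weeks, and 2.00 ± 1.27 (n = 5) in naive spleen, on 4 to 17 UMIs per library. The ranges of the kidney groups overlapped, as did those of naive spleen, 3-week spleen (5.59 ± 2.33, n = 5), and the 24-week kidney label (3.20 ± 1.95, n = 3), neighbor by neighbor. Gzma was highest under the 24-week spleen label, at 449 ± 115 CPM (n = 3), and lowest in naive spleen, at 13.0 ± 9.58 (n = 5). The only gap between neighboring conditions in the order of Gzma levels lay between spleens of accepted recipients at 1 week (108 ± 37.8, n = 3) and at 3 weeks (28.8 ± 16, n = 5).

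Gzmk fell into a high and a low set of conditions. It measured 81.9 ± 21.1 CPM (n = 3) under the 24-week spleen label and 37.6 to 40.0 CPM as the mean of each of the 3 groups of kidneys at 1 or 3 weeks, and no other condition mean exceeded 6.87 CPM. Gzmm had the opposite order. It was highest in spleens of rejecting recipients, at 50.3, 26.1, and 33.3 CPM, followed by accepted recipients' spleens at 1 week (17.9 ± 3.32, n = 3) and 3 weeks (17.2 ± 1.37, n = 5) and naive spleen (17.2 ± 3.04, n = 5), which did not differ beyond their spread over all cells of the matrices. Among cells with a CD8 UMI and no Cd4 UMI, Gzmm was 26.1 to 32.3 CPM in accepted recipients' spleens at 1 week. At 3 weeks it was 22.5 to 32.5 CPM there, against 13.3 to 22.6 CPM in naive spleens. In such cells the spleens of rejecting recipients, at 26.5 to 50.7 CPM, overlapped those of accepted recipients. It was lowest in accepted kidneys at 3 weeks, at 1.07 ± 0.231 CPM (n = 5), and in rejecting kidneys, where 1 library held 0 UMIs, which allows up to 3 (counting error only), and the other 7.

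Prf1 was ordered unlike the granzymes. Rejecting kidneys had 168 and 230 CPM, accepted kidneys at 3 weeks 121 to 142 CPM, and the 24-week spleen label 77.3 to 98.6 CPM, followed by naive spleen at 50.3 to 67.2 CPM. The lowest were spleens of accepted recipients at 1 week, with 22.9, 25.1, and 22.9 CPM, below every library of the other conditions. Among cells with a CD8 UMI and no Cd4 UMI they had 30.9 to 35.7 CPM, which overlapped the 24-week kidney label (31.2 to 54.9 CPM). Nkg7 and Ctsw shared their highest condition, the accepted kidney at 3 weeks, at 3400 ± 259 and 760 ± 86.2 CPM (n = 5). Nkg7 was lowest in spleens of rejecting recipients, at 184, 320, and 305 CPM. Over all cells Ctsw did not differ beyond the spread among all 4 spleen groups outside 24 weeks and the 24-week kidney label, whose means lay between 133 and 171 CPM. Among cells with a CD8 UMI and no Cd4 UMI, Ctsw was 194 to 222 CPM in accepted recipients' spleens at 1 week. Naive spleens had 123 to 152 CPM in such cells. These are 3′ UMIs not set per length, and levels of different genes are not compared.

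Both serpins were high in the same 4 conditions, which were the kidneys at 1 and 3 weeks and the 24-week spleen label, and neighbors in that set overlapped. Means there were 67.4 to 112 CPM for Serpinb6b and 72.5 to 132 CPM for Serpinb9, and in the other 5 conditions no library exceeded 50.2 CPM for Serpinb6b or 24.2 CPM for Serpinb9. The plot of CPM by library shows these levels, with Gzmm as the one panel in which all kidneys at 1 and 3 weeks lie below the naive, 1-week, and 3-week spleens. The 24-week labels run the other way, with 0.943 to 1.39 CPM of Gzmm under the spleen label and 5.72 to 9.74 CPM under the kidney label.

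**Figure D1:**
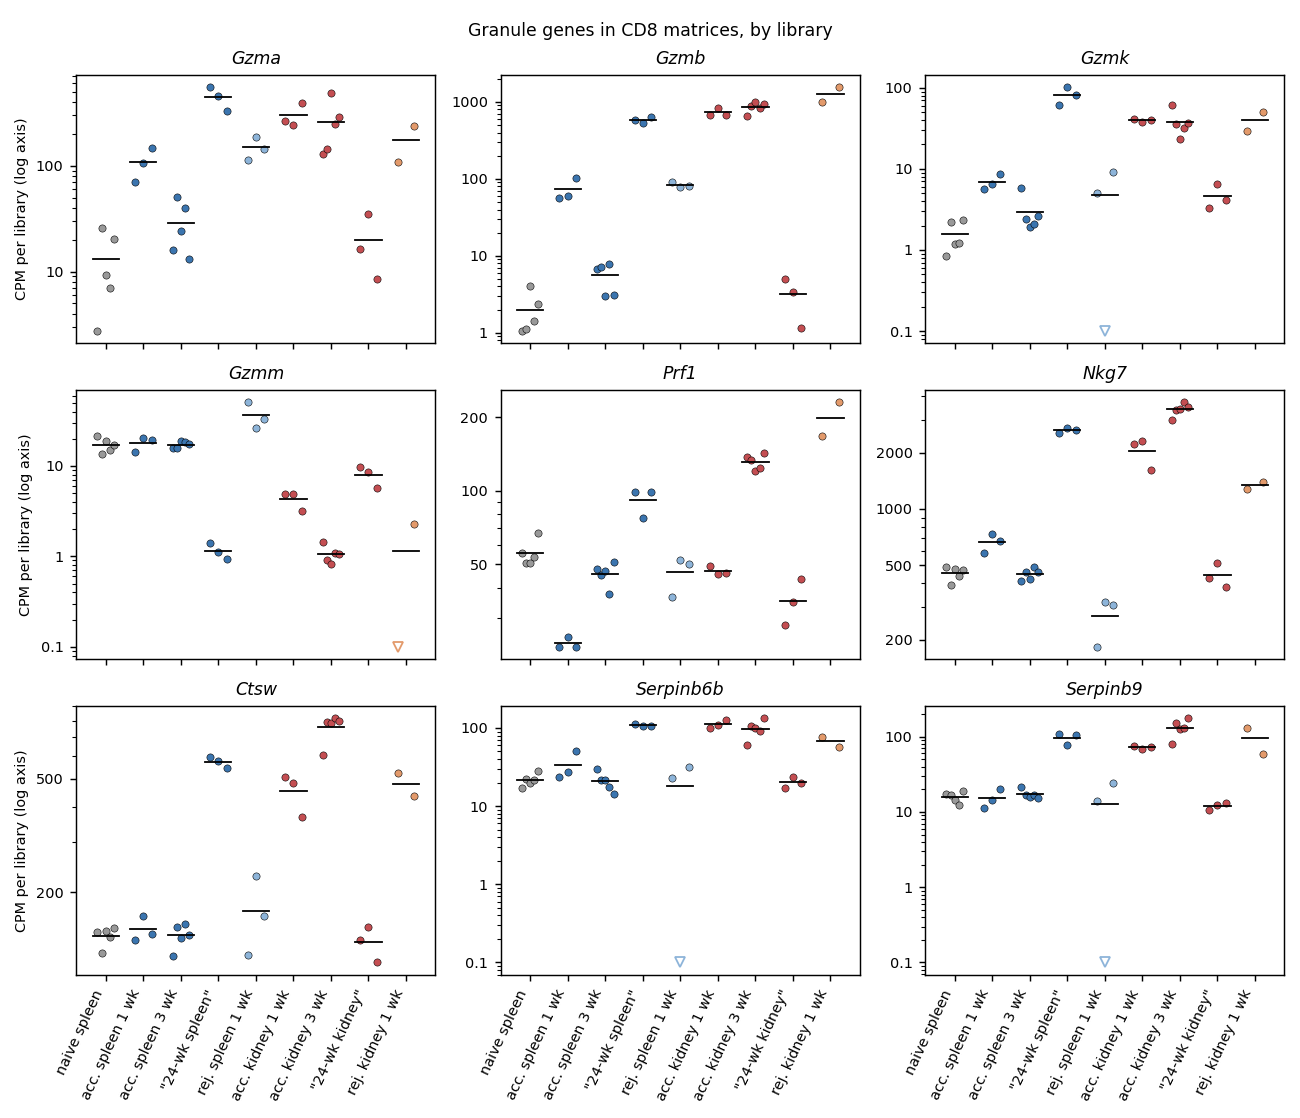
CPM of each of the 9 genes (log axis) in each library of the 9 conditions, where each point is a library, each line a condition mean, and each open triangle at 0.1 a library with 0 UMIs (naive spleen in grey, accepted recipients' spleen in blue, rejecting recipients' spleen in light blue, accepted kidney in red, rejecting kidney in orange). Gzmb spans 640 times from its lowest to its highest condition mean and Ctsw 5.70 times, and Gzmm alone is lower in kidneys than in spleens at 1 and 3 weeks.

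The accepted graft was compared with the recipient's spleen at the same time, which asks where transcripts of granule proteins were concentrated. At 1 week 8 members were higher in the kidney and 1, Gzmm, was lower, and at 3 weeks it was the same 8 and the same 1. By the quasi-likelihood test of edgeR (Benjamini-Hochberg adjustment) 51.4% of 11707 genes were called at 1 week, 27.3% higher and 24.1% lower in the kidney. At 3 weeks 67.5% of 10944 were called, 47.3% higher and 20.2% lower. The higher share of calls at 3 weeks was 70.0%, and 51.4% with TMM factors, and no member changed direction or call with that scaling. The groups of all 9 members did not overlap at either time, as for 60.7% and 52.3% of all genes.

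Gzmb had 57.0, 60.7, and 103 CPM in spleens and 686, 829, and 679 CPM in kidneys at 1 week. At 3 weeks spleens had 3.02 to 7.85 CPM (median 6.77) and kidneys 660 to 992 CPM (median 880). The difference was 3.31 (log2, SE 0.21, adjusted p = 6.14e-07) at 1 week and 7.25 (SE 0.17, adjusted p = 5.4e-17), or 153-fold, at 3 weeks, and no other member differed as much at either time. Gzma was 1.48 (SE 0.24, adjusted p = 0.000437) and 3.17 (SE 0.36, adjusted p = 2.9e-07) higher in kidneys on the log2 scale. Gzmk had 5.58 to 8.57 CPM in spleens and 37.5 to 41.4 CPM in kidneys at 1 week, and it was 12.3-fold higher in kidneys at 3 weeks. Gzmm had 14.1, 20.4, and 19.2 CPM in spleens against 4.86, 4.89, and 3.16 CPM in kidneys at 1 week. It was 15.7 to 18.8 CPM in spleens and 0.819 to 1.43 CPM in kidneys at 3 weeks, a difference of −3.98 (log2, SE 0.16, adjusted p = 1.19e-13) after −2.09 (SE 0.21, adjusted p = 1.49e-05) at 1 week. These 3-week kidney levels rest on 9 to 16 Gzmm UMIs per library.

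The pore protein differed least of the 8 that were higher in kidneys. Prf1 was 22.9 to 25.1 CPM in spleens and 45.5 to 49.2 CPM in kidneys at 1 week, 1.98-fold higher (adjusted p = 1.95e-05), and 2.87-fold higher at 3 weeks (adjusted p = 3.39e-12). Nkg7 differed by 1.62 and 2.92 on the log2 scale, Ctsw by 1.62 and 2.43, Serpinb6b by 1.72 and 2.22, and Serpinb9 by 2.24 and 2.93. The median member was 1.62 higher at 1 week, when the median of all genes was 0.00, and 2.92 higher at 3 weeks, when it was 0.22. The spleen matrices at these times held fewer cells with a CD8 UMI, as given above, and more B cell transcripts. The 5 B cell markers summed to 489 to 975 CPM in spleens and 8.57 to 9.51 CPM in kidneys at 1 week, and to 119 to 303 and 12.3 to 28.9 CPM at 3 weeks. Among cells with a CD8 UMI and no Cd4 UMI the 9 members kept their direction and call at both times. Prf1 then differed by 0.55 and 1.18 (adjusted p = 0.00201 and 1.49e-10), Gzma by 0.69 and 2.92, Gzmb by 3.63 and 7.10, and Gzmm by −2.70 and −4.62.

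In the spleen the first week was marked by a split between granzymes and perforin. Relative to naive spleen, Gzma, Gzmb, Gzmk, Nkg7, and Serpinb6b rose in accepted recipients' spleens at 1 week, Prf1 fell, and Gzmm, Ctsw, and Serpinb9 did not pass the test. So 6 of the 9 were called, as were 60.2% of 10348 genes (25% higher, 35.2% lower). Gzma went from 2.74, 25.6, 9.34, 7.07, and 20.4 CPM in naive spleens to 70.6, 106, and 146 CPM, 8.75-fold (adjusted p = 6.15e-07). Among all CD45+ cells of naive spleen, cells clustered as B-like by their markers had 0.692 to 2.50 CPM of Gzma, below each naive library here, but the share of cells with a Gzma UMI, 0.670% to 2.09% without thinning, overlapped theirs (0.227% to 0.831%). Gzmb went from 1.06 to 4.07 CPM (median 1.41) to 57.0 CPM and above, 37.0-fold (log2 5.21, SE 0.28, adjusted p = 4.1e-10). Neither gene's groups overlapped, as for 54.2% of all genes, and Gzmk was 2.18 higher on the log2 scale (SE 0.28, adjusted p = 5.01e-06).

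Prf1 moved the other way. It was 55.5, 50.4, 50.3, 53.7, and 67.2 CPM in naive spleens and 22.9, 25.1, and 22.9 CPM at 1 week, a fall of 1.23 on the log2 scale (SE 0.10, adjusted p = 2.93e-08), where the median of all genes was −0.12. The groups did not overlap. In cells with a CD8 UMI and no Cd4 UMI Prf1 fell by 0.76 on the log2 scale (adjusted p = 5.96e-06), Gzma and Gzmb rose by 4.02 and 5.0, and Gzmm (0.68) and Ctsw (0.52) passed the test as well. Of 7 NK cell markers 5 or 6 were detected in naive libraries, with a summed 5.84 to 13.3 CPM, and 7 at 1 week, with 59.0 to 96.9 CPM. Ncr1, a defining NK receptor, had a UMI in 0.0838% to 0.410% of cells in naive libraries and 0.502% to 0.711% at 1 week. The 5 B cell markers, all detected in every library, summed to 28.9 to 59.5 CPM in naive spleens and 489 to 975 CPM at 1 week. The part of NK and B cells in these changes was not tested. Without spleen library 3 of 1 week the call of Serpinb6b, which rose by 0.66 (adjusted p = 0.0101, overlapping groups), was lost at 0.25 (adjusted p = 0.102).

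From 1 to 3 weeks these spleen changes ran back. Gzma fell by 1.90 on the log2 scale (SE 0.29, adjusted p = 4.19e-05), Gzmb by 3.72 (SE 0.24, adjusted p = 1.7e-08), Gzmk by 1.19 (adjusted p = 0.0021, overlapping groups), Nkg7 by 0.56 (adjusted p = 3.21e-05), and Serpinb6b by 0.70 (adjusted p = 0.0141, overlapping groups), while Prf1 rose by 0.95 (SE 0.10, adjusted p = 1.07e-06) to 37.7 to 51.2 CPM. The 1-week libraries are shared with the comparison above, so that the opposite signs are not independent. Of the 9 members 6 were called, as were 56.2% of 10416 genes (35.1% higher, 21.1% lower), so that 62.5% of all calls were higher at 3 weeks (48.5% with TMM factors). The groups of 49.6% of genes did not overlap. The members' median was −0.56 and that of all genes 0.15. Gzmm (−0.06), Ctsw (−0.07), and Serpinb9 (0.17) did not pass. NK markers summed to 44.4 to 64.1 CPM at 3 weeks, with all 7 detected, against the 59.0 to 96.9 CPM at 1 week, and B cell markers to 119 to 303 CPM against 489 to 975 CPM, and their part was not tested. Without spleen library 3 of 1 week, Serpinb6b lost its call (−0.28, adjusted p = 0.162) and Serpinb9 gained one (0.45, adjusted p = 0.0189). In cells with a CD8 UMI and no Cd4 UMI the 6 calls stood, with Gzmb at −3.32 and Prf1 at 0.83.

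Within the accepted kidney the calls from 1 to 3 weeks were partly those of the spleen. Prf1 rose in both organs, and Nkg7 rose here but fell in the spleen. Prf1, Nkg7, Ctsw, and Serpinb9 were higher at 3 weeks than at 1 week, Gzmm was lower, and Gzma, Gzmb, Gzmk, and Serpinb6b did not pass the test. These 5 of 9 compare with 75% of 11693 genes called, 53.5% higher and 21.5% lower, so that the count alone is no result about the members. Of all calls 71.3% were higher (49.7% with TMM factors). Prf1 had 49.2, 45.5, and 45.9 CPM at 1 week and 137, 134, 121, 124, and 142 CPM at 3 weeks, 2.81-fold (log2 1.49, SE 0.08, adjusted p = 2.39e-09), with no overlap, as for 69.6% of all genes. Nkg7 was 1.66-fold higher (1619 to 2295 against 2992 to 3704 CPM, adjusted p = 2.78e-05), Ctsw 1.68-fold (adjusted p = 4.52e-05), and Serpinb9 1.82-fold (adjusted p = 0.00046). The median over all genes was 0.41 on the log2 scale. With TMM factors, which set it to 0.03, Prf1 was 1.11, Nkg7 0.35, Ctsw 0.37, and Serpinb9 0.49 higher, each still called. Cells with a CD8 UMI made up 83.5% to 90.1% at 1 week and 96.3% to 97.0% at 3 weeks, and cells with a Cd4 UMI 4.16% to 6.41% and 1.01% to 1.39%. All 7 NK cell markers and all 7 monocyte or macrophage markers were detected at both times, the former at a summed 28.1 to 39.4 and 39.7 to 66.5 CPM and the latter at 43.5 to 101 and 67.1 to 159 CPM. Their part was not tested. Among cells with a CD8 UMI and no Cd4 UMI the 5 calls stood, with Prf1 at 1.46, Nkg7 at 0.67, Ctsw at 0.67, Serpinb9 at 0.81, and Gzmm at −2.02.

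Granzymes did not share one course in the graft. Gzmb had 686, 829, and 679 CPM at 1 week and 660 to 992 CPM (median 880) at 3 weeks, which overlapped, and its difference of 0.23 (SE 0.12, adjusted p = 0.0862) turned to −0.16 with TMM factors. Gzma, at 244 to 391 CPM against 129 to 489 CPM, differed by −0.21 (SE 0.32, adjusted p = 0.557), and Gzmk by −0.08 (SE 0.21, adjusted p = 0.737). Gzmm had 4.86, 4.89, and 3.16 CPM at 1 week and 1.43, 0.923, 0.819, 1.09, and 1.07 CPM at 3 weeks. It fell by 1.97 on the log2 scale (SE 0.24, adjusted p = 3.62e-06). Serpinb6b differed by −0.19 (adjusted p = 0.336), and it was called lower with TMM factors (−0.57, adjusted p = 0.0125). Cells with a UMI of Mki67 or Top2a, which mark division, made up 29.7% to 48.3% of cells at 1 week and 10.7% to 15.7% at 3 weeks. Among cells without such a UMI Gzmb was called higher at 3 weeks (0.46, adjusted p = 0.00123). Calls were also gained without kidney library 2 of 1 week (Gzmb 0.33), without kidney library 1 of 3 weeks (Gzmb 0.31, Gzmk −0.32), and without kidney library 3 of 3 weeks (Gzma −0.57).

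The change from 1 to 3 weeks differed between kidney and spleen for 7 members in an interaction test, which called 40.1% of 12319 genes, 29.2% in favor of the kidney and 10.9% of the spleen. Of all calls 72.8% were in favor of the kidney (50.6% with TMM factors). The interaction was 3.95 for Gzmb (log2, SE 0.29, adjusted p = 2.31e-09), 1.69 for Gzma (adjusted p = 0.0137), 1.29 for Nkg7 (adjusted p = 6.49e-07), 0.82 for Ctsw (adjusted p = 0.000345), 0.54 for Prf1 (adjusted p = 0.00157), 1.11 for Gzmk (adjusted p = 0.0366), and −1.90 for Gzmm (adjusted p = 1.11e-05). The median of all genes was 0.24. Serpinb9 (0.69, adjusted p = 0.0539) and Serpinb6b (0.51, adjusted p = 0.22) did not pass. The call of Gzmk was lost with TMM factors (0.92, adjusted p = 0.0936) and in 8 of the 16 fits that left out 1 library: each spleen library of 3 weeks other than library 1, libraries 2 and 3 of spleen at 1 week, and libraries 2 and 3 of kidney at 1 week, with values from 0.90 to 1.15. With DESeq2 the calls of Gzma (1.42, adjusted p = 0.138), Gzmk (0.86, adjusted p = 0.0801), and Prf1 (0.28, adjusted p = 0.0676) were lost. Serpinb9 gained a call without spleen library 1 of 1 week (0.87), spleen library 1 of 3 weeks (0.79), or kidney library 1 of 3 weeks (0.83).

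**Figure D2:**
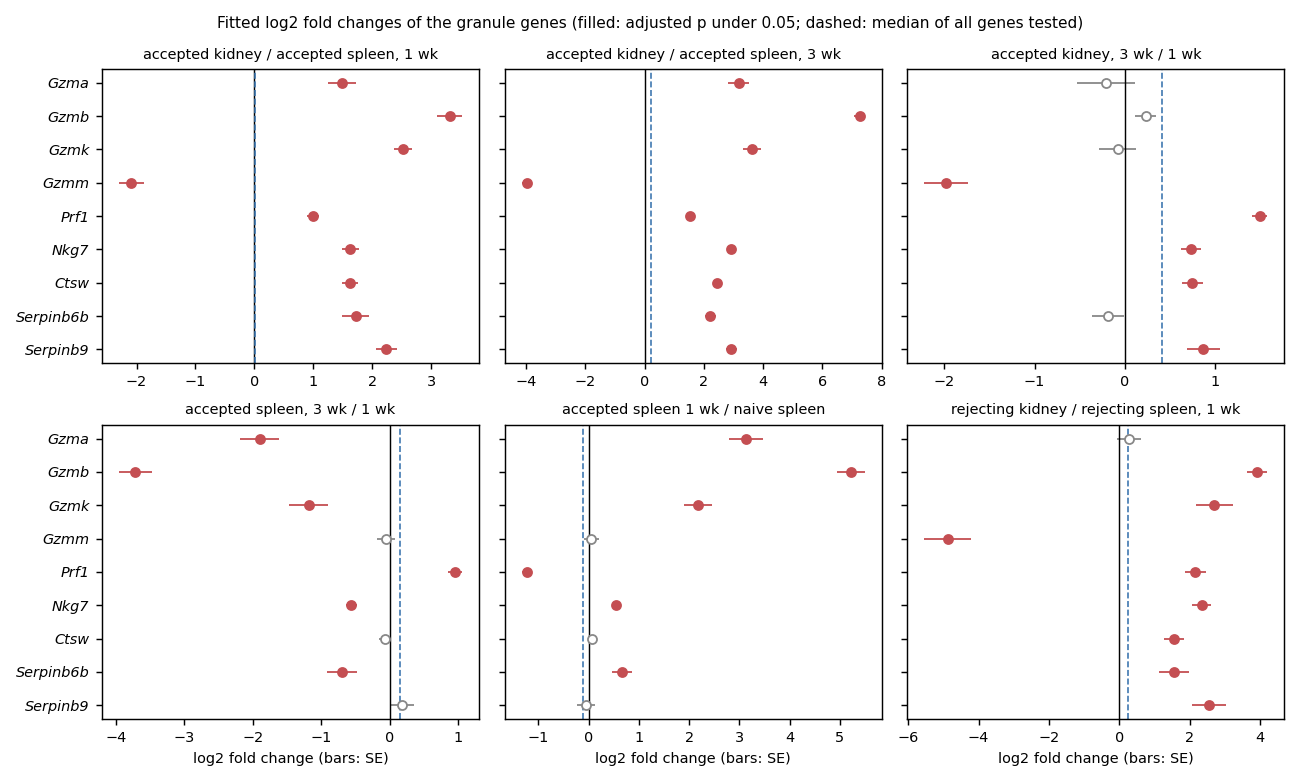
Log2 fold change (x axis) of each of the 9 genes (y axis) in 6 comparisons, with bars of 1 SE, filled points for an adjusted p under 0.05, and a dashed line at the median of all genes tested. In the graft against the spleen Gzmm is the one gene on the left (−2.09 and −3.98), and Prf1 is on the left (−1.23) in spleen at 1 week against naive spleen, where Gzmb is at 5.21.

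Under the 24-week labels the members stood the other way round. The kidney label had 8 members lower and Gzmm higher than the spleen label, with 53.1% of 10381 genes called, 16.4% higher and 36.7% lower under the kidney label. Of all calls 31.0% were higher there (48.4% with TMM factors), and the groups of 59.5% of genes, and of all 9 members, did not overlap. Gzmb had 5.05, 3.38, and 1.17 CPM under the kidney label and 577, 536, and 642 CPM under the spleen label, and Gzmm had 54, 53, and 44 UMIs against 7, 4, and 4. The differences ranged from −7.59 for Gzmb to −1.36 for Prf1 on the log2 scale, with 2.73 for Gzmm, and the medians were −2.57 for the members and −0.17 for all genes. Against the 3-week libraries of the same label, the kidney label had the same 8 lower and Gzmm higher with Gzmb at −8.15, where 73.5% of 11617 genes were called, 16.6% higher and 56.9% lower (22.6% of calls higher, 48.4% with TMM factors), and 69.2% did not overlap. The spleen label had the 8 higher and Gzmm lower with Gzmb at 6.70, where 60.6% of 10415 genes were called, 29.8% higher and 30.8% lower, and 55.4% did not overlap. These comparisons share the 24-week libraries, and the kidney genes and CD8 shares given above ran against both labels.

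Rejecting and accepted kidneys at 1 week differed most clearly in perforin. Prf1 had 168 and 230 CPM in rejecting and 49.2, 45.5, and 45.9 CPM in accepted kidneys, 4.25-fold (log2 2.09, SE 0.18, adjusted p = 2.77e-05). The groups did not overlap, as for 74% of all genes, and the call stood under each setting tried: 1.38 with DESeq2, 1.40 with TMM factors, 1.89 with the shift of genes of similar intron length removed, and 2.16 among cells with a CD8 UMI and no Cd4 UMI. Gzmb had 987 and 1574 CPM in rejecting against 686, 829, and 679 CPM in accepted kidneys, 1.75-fold (log2 0.81, SE 0.22, adjusted p = 0.0115). Nkg7 was lower by 0.62 on the log2 scale (SE 0.19, adjusted p = 0.0236), with 1280 and 1394 CPM against 2231, 2295, and 1619 CPM, and Serpinb6b by 0.74 (SE 0.19, adjusted p = 0.0105), with 77.0 and 57.8 CPM against 101, 108, and 127 CPM.

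These 4 of 9 calls, 2 in each direction, compare with 59.3% of 12533 genes called, 48.8% higher and 10.5% lower in rejecting kidneys. Of all calls 82.3% were higher (51.7% with TMM factors). The median of all genes was 0.70 and that of the members 0.02. With TMM factors, where the median of all genes was near 0, 1 member was called higher and 6 lower, beside 3443 higher and 3222 lower of the 12533 genes. Gzmb was then at 0.11 (adjusted p = 0.709), Gzma at −1.48, Gzmm at −2.42, and Gzmk (−0.67) and Ctsw (−0.61) turned from 0.02 and 0.08 to called lower values, while Serpinb9 turned from 0.38 to −0.30 without a call. Prf1 was thus the one member called higher in rejecting kidneys under both scalings. Gzma (−0.79, SE 0.34, adjusted p = 0.074) and Gzmm (−1.74, SE 0.70, adjusted p = 0.0584, on 0 and 7 UMIs in rejecting kidneys) did not pass with plain totals. Leaving out 1 of the 2 rejecting libraries leaves a lone library, which is assumed to vary like the accepted ones. Both were called without rejecting library 3, Gzma at −1.48 and Gzmm against a library with 0 UMIs, which gives no fold, and there Serpinb9 was called (0.85) and Gzmb was not (0.43, adjusted p = 0.051). Without accepted library 1 Gzmb (0.76, adjusted p = 0.0573) and Nkg7 (−0.55, adjusted p = 0.0991) were not called, without accepted library 2 Nkg7 was not (−0.53), and without accepted library 3 Gzmm was (−1.94). Dividing cells made up 26.0% and 68.1% of the rejecting libraries, and median UMIs per cell were 1631 and 2849. NK cell markers summed to 40.0 to 42.8 CPM in rejecting kidneys, with 5 of 7 detected and Klrb1c and Klra4 at 0, against 28.1 to 39.4 CPM in accepted kidneys, with 7 detected. Monocyte or macrophage markers summed to 204 to 239 CPM, with Fcgr1 at 0 and the other 6 of 7 detected, against 43.5 to 101 CPM with 7 detected. Their part in these differences was not tested. A Cd4 UMI was found in 0% of cells in rejecting kidneys and in 4.16% to 6.41% in accepted kidneys. The rejecting kidney matrix lists 32285 genes and the accepted one at 1 week 19497. Gene list and Cd4 share thus differed with outcome as well, and these cannot be told apart from it.

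Within rejecting mice, kidney and spleen differed in the same directions as in accepted mice for the members called. Gzmb, Gzmk, Prf1, Nkg7, Ctsw, Serpinb6b, and Serpinb9 were higher in the kidney and Gzmm was lower, 8 of 9 called where 16.1% of 8205 genes were, 10.8% higher and 5.34% lower, and where the groups of 44.4% did not overlap. Of all calls 66.9% were higher (49.2% with TMM factors). Gzmb had 91.9, 78.3, and 81.7 CPM in spleens against 987 and 1574 CPM, 15-fold (log2 3.91, SE 0.29, adjusted p = 3.87e-06). Prf1 differed by 2.16 (adjusted p = 0.000236) and Gzmm by −4.87 (adjusted p = 0.000221), on 0 and 7 UMIs in the kidney libraries. Without kidney library 2 Gzmm was at −4.07 on 1 kidney library, assumed to vary like the spleens, and without kidney library 3 the remaining library held 0 UMIs, which gives no fold. Gzma, at 115, 189, and 145 CPM in spleens and 108 and 239 CPM in kidneys, was the one member that overlapped (0.27, SE 0.34, adjusted p = 0.634). Without dividing cells Gzma was called as well, at 2.24 (adjusted p = 0.0047), with 7.89, 7.93, and 47.1 CPM in spleens and 66.2 and 171 CPM in kidneys. The smallest library, rejecting spleen 2, held 0 UMIs of Gzmk, Serpinb6b, and Serpinb9, which allows up to 3 of each. Without it the 8 calls stood. Without rejecting spleen library 1, Gzmk (2.50, adjusted p = 0.0563), Serpinb6b (1.54, adjusted p = 0.168), and Serpinb9 (2.39, adjusted p = 0.0579) were not called, and with TMM factors Serpinb6b was not (1.32, adjusted p = 0.0629). The medians were 2.16 for the members and 0.25 for all genes. NK cell markers summed to 40.0 to 42.8 CPM in kidneys, with 5 of 7 detected, and to 0 to 15.1 CPM in spleens, with 0 to 6 detected and Klra4 at 0 in both organs. Monocyte or macrophage markers summed to 204 to 239 CPM against 34.0 to 141 CPM, with 6 and 4 of 7 detected, and B cell markers to 5.52 to 7.57 CPM against 91.3 to 366 CPM, with 3 and 5 of 5 detected. Their part was not tested. Among cells with a CD8 UMI and no Cd4 UMI the 8 calls stood, with Prf1 at 2.26 and Nkg7 at 2.45.

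The kidney-to-spleen difference itself was compared between rejecting and accepted mice. Only Prf1 passed, with a difference 1.19 larger in rejecting mice (log2, SE 0.26, adjusted p = 0.0326), where 1.42% of 13135 genes were called, 1.08% with a larger and 0.343% with a smaller value in rejecting mice. Of all calls 75.9% were larger (58.4% with TMM factors), and the median of all genes was 0.21. This call was not stable. It was lost with TMM factors (1.01, adjusted p = 0.0503), without dividing cells (0.86, adjusted p = 0.0876), and, in a setting chosen after seeing the data, with the intron-length shift removed (0.83, adjusted p = 0.115). It was also lost without any 1 of the 3 accepted spleen libraries, rejecting spleen library 1 or 3, or accepted kidney library 2 or 3, with values of 0.99 to 1.33. It stood at 1.73 (adjusted p = 0.00925) among cells with a CD8 UMI and no Cd4 UMI. Cells with a CD8 UMI made up 76.6% to 78.1% in rejecting kidneys and 100% in spleens of rejecting recipients. In accepted mice at 1 week they made up 83.5% to 90.1% in kidneys and 41.9% to 49.2% in spleens. Strain and gene list differed with outcome too, and these cannot be told apart from it. Gzmm was at −2.88 (adjusted p = 0.0504), and it passed with TMM factors (−3.07, adjusted p = 0.0441), without accepted kidney library 3 (−3.09), and without rejecting kidney library 3, which leaves 1 such library and where Gzma passed as well (−1.85). The other members were within 0.73 of 0, apart from Gzma at −1.18 (adjusted p = 0.228).

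**Figure D3:**
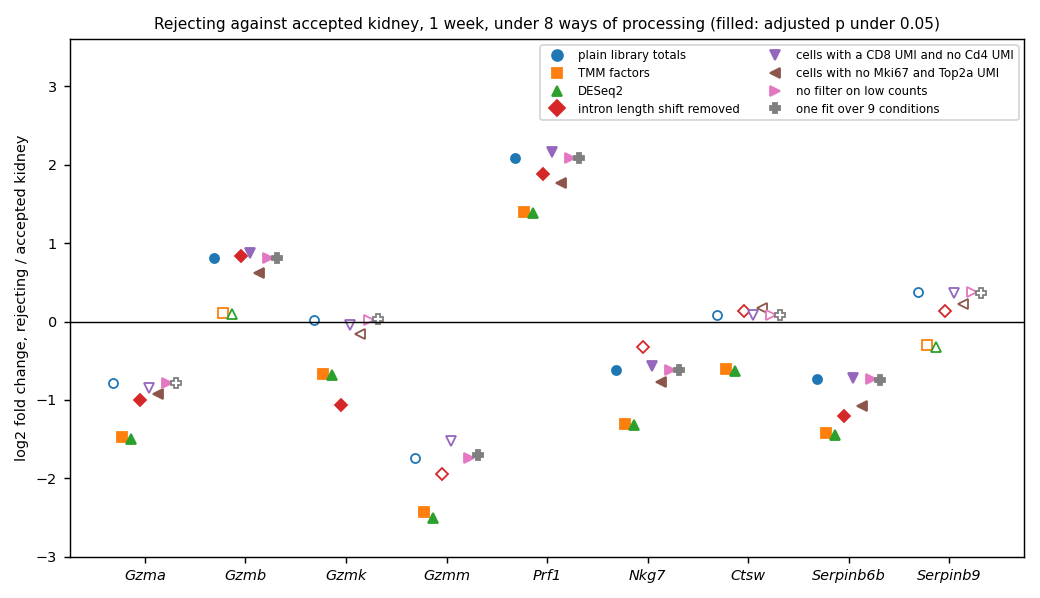
Log2 fold change of rejecting over accepted kidneys at 1 week (y axis) for the 9 genes (x axis) under 8 settings (symbols, filled where the adjusted p is under 0.05). Prf1 is above 0 under every setting drawn, from 1.38 with DESeq2 to 2.16 among cells with a CD8 UMI and no Cd4 UMI, and Gzmb drops from 0.81 to 0.11 with TMM factors; the Gzmm point of cells without Mki67 and Top2a UMIs is left out because both rejecting libraries held 0 Gzmm UMIs there.

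Ratios within a library do not depend on its total. Per UMI of Gzmb there were 12.4 to 52.6 UMIs of Prf1 in naive spleens, 0.223 to 0.414 in accepted recipients' spleens at 1 week, and 4.80 to 16.4 at 3 weeks. In kidneys there were 0.0548 to 0.0716 at 1 week and 0.122 to 0.208 at 3 weeks in accepted grafts, and 0.146 and 0.170 in rejecting grafts. At 1 week both rejecting libraries thus lay above all 3 accepted libraries and within the 3-week range. Ctsw and Nkg7 kept a narrower ratio. Per UMI of Nkg7 there were 0.203 to 0.234 UMIs of Ctsw in accepted kidneys at 1 and 3 weeks and spleens at 1 week, 0.289 to 0.327 in naive and 3-week spleens, 0.312 and 0.410 in rejecting kidneys, and 0.540 to 0.714 in spleens of rejecting recipients, which did not overlap any other condition. Serpinb9 had 0.581 to 0.75 UMIs per UMI of Serpinb6b in accepted kidneys at 1 week and 1.26 to 1.41 at 3 weeks.

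In accepted kidneys the neighbor genes Gzma and Gzmk had the highest ratio of cells holding both, among pairs with at least 10 expected cells. This order depends on how common each gene is, as given below. Each cell was thinned to 1000 UMIs, and the number of cells with UMIs of both genes was divided by the number expected from their separate shares in the same library. In accepted kidneys at 1 week 146 cells held both against 54.7 expected, a ratio of 2.67 (2.37 to 3.13 over 3 libraries), and at 3 weeks the ratio was 2.46 (1.99 to 2.85 over 5). The neighboring serpins had 2.20 at 1 week and 1.85 at 3 weeks (390 cells against 211). Gzma and Gzmb had 1.74 and 1.94 (605 cells against 311 at 3 weeks). These are descriptions, and pairs in 1 cell also share its depth, state, and class. A ratio cannot exceed the inverse of the larger share, so pairs with a widely seen gene, such as Gzmb or Nkg7, are held lower. The order of pairs is therefore not read as closeness of the genes.

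Nkg7 and Ctsw stood at 1.05 and 1.00 in accepted kidneys at 1 and 3 weeks. Nkg7 was seen in 92.8% to 95.6% of thinned cells per library at 3 weeks, so a ratio with it cannot exceed 1 by much. These values therefore do not show whether the genes share cells, and they are not set against ratios of rarer genes. Gzmb and Prf1, which act together on a target, had 1.48 (1.29 to 1.59) at 1 week but 1.08 (1.03 to 1.15, 970 cells against 896) at 3 weeks, and 1.33 (1.31 to 1.36) in rejecting kidneys. Gzmb and Gzmk had 1.39 at 1 week and 0.975 at 3 weeks, where libraries ranged from 0.690 to 1.18. Gzmk and Ctsw were below 1 in each 3-week library (0.813 to 0.973). Gzmb and Gzmm had 0.897 at 1 week, with 0.470 to 1.09 over the libraries. Of the 36 pairs 25 were above 1 in every accepted kidney library at 1 week, 7 at 3 weeks, and 15 in both rejecting libraries. Without thinning 18 were at 3 weeks. The counts demand 3, 5, and 2 libraries and include pairs with few expected cells, so they are not compared with each other. Among the 31, 30, and 22 pairs with at least 10 expected cells, the median ratio was 1.09, 1.03, and 1.11. In accepted recipients' spleens at 1 week, where fewer cells held a CD8 UMI, Gzmk was found with Nkg7 in 41 cells against 17.0 expected, a ratio of 2.41 (2.17 to 2.97), and even Gzmm was found with Ctsw at 2.25 (2.12 to 2.68) and with Nkg7 at 1.96 (1.82 to 2.52).

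**Figure D4:**
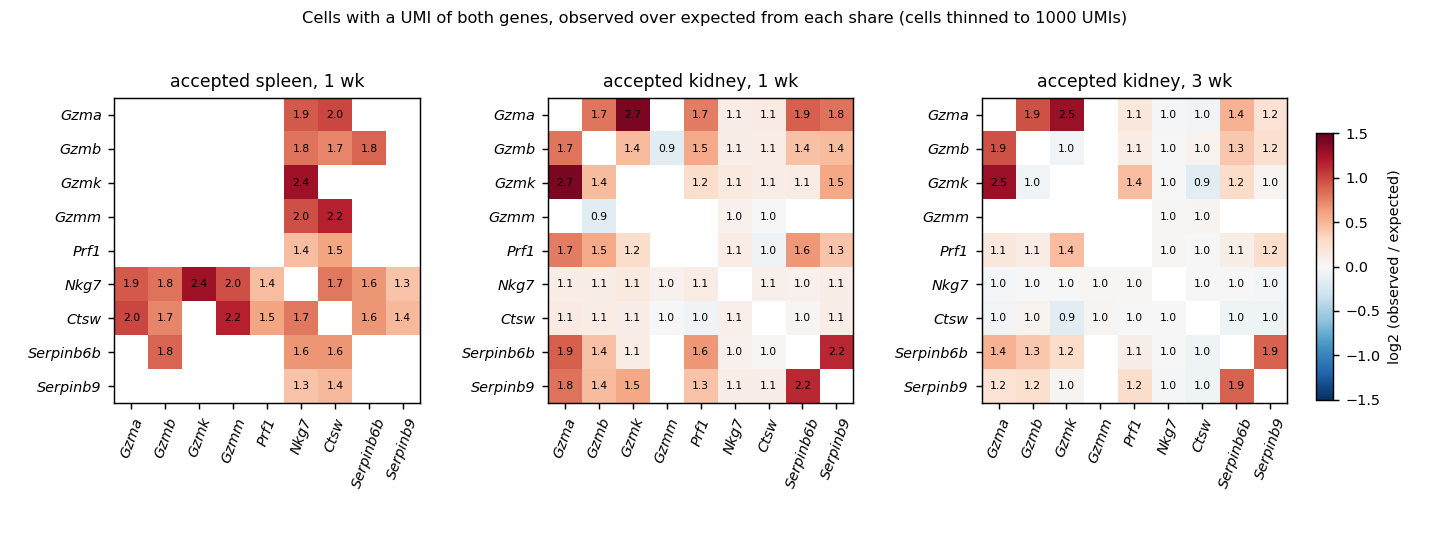
Cells with UMIs of both genes divided by the number expected from their separate shares, for pairs of the 9 genes with at least 10 expected cells, in accepted recipients' spleens at 1 week and accepted kidneys at 1 and 3 weeks (each cell thinned to 1000 UMIs; color on a log2 scale, the number is the ratio). In the kidney panels the pair Gzma and Gzmk is highest (2.67 and 2.46), but pairs with a widely seen gene are held to lower ratios. Nkg7 and Ctsw are at 1.05 and 1.00. At 3 weeks ratios with Nkg7 cannot exceed 1 by much, since 92.8% to 95.6% of thinned cells per library held it.

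In spleens of graft recipients at 1 week, Gzma and Gzmb levels were higher in dividing cells. In accepted recipients' spleens at 1 week the 1027 cells with a UMI of Mki67 or Top2a had 229 to 485 CPM of Gzma against 53.0 to 81.3 in the others, 119 to 377 of Gzmb against 34.8 to 53.6, and 22.7 to 28.4 of Gzmk against 3.66 to 4.40, higher in 3 of 3 libraries each. Prf1 stood at 21.7 to 23.9 against 22.7 to 25.6. In rejecting recipients' spleens 94 such cells had 369 to 443 CPM of Gzmb against 3.15 to 15.9 and 536 to 1033 of Gzma against 7.89 to 47.1. In naive spleen, where 124 cells were dividing, Gzma was higher in them in 2 of 5 libraries, Gzmb in 1, Gzmk in 0, and Prf1 in 5. In accepted recipients' spleens at 3 weeks Gzmb was higher in dividing cells in 5 of 5 libraries and Gzma in 4, and under the 24-week spleen label Gzmb was in 1 of 3. In rejecting kidneys Gzma, Gzmb, and Prf1 were higher in them in both libraries. In accepted kidneys at 1 week the gap was smaller, with 738 to 990 CPM of Gzmb against 572 to 686. At 3 weeks the 2880 dividing cells had 584 to 950 CPM of Gzmb against 676 to 999, and Gzma and Gzmb were higher in them in 2 of 5 libraries each. Nkg7 (1465 to 1919 against 1894 to 2630), Ctsw, Serpinb6b, and Gzmm were lower in the dividing cells of all 3 libraries at 1 week. These are levels in cells chosen by a UMI of a dividing gene, which deeper cells hold more often, and no test was run.

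Shares of cells with a UMI were set beside the levels at 1 depth per cell. After thinning to 1000 UMIs, which left out 1 naive cell and 313, 53, and 97 cells of the spleen labels at 1, 3, and 24 weeks, Nkg7 was seen in 34.2% ± 2.4 of cells of naive spleen (SD, n = 5) and 94.7% ± 1.1 in accepted kidneys at 3 weeks (n = 5). Gzmb was seen in 0.208% of naive cells, 3.37% of accepted recipients' spleen cells at 1 week, 30.3% and 35.1% of accepted kidney cells at 1 and 3 weeks, and 48.9% of rejecting kidney cells. Prf1 was seen in 5.33%, 2.18%, 4.34%, 11.4%, and 14.0% of cells of those conditions. Without thinning Prf1 was at 20.8%, 6.13%, 11.8%, 24.5%, and 27.8% and Gzmb at 0.591%, 6.07%, 45.3%, 47.8%, and 64.2%. The share of Gzma in accepted kidneys was 7.31% ± 2.3 at 1 week and 3.75% ± 1.4 at 3 weeks, although its CPM overlapped. Nkg7 differed in this way too, since naive and 3-week spleens overlapped in CPM (394 to 488 and 414 to 491) but not in thinned shares (29.9% to 36.0% and 23.7% to 28.1%). Exact two-sided permutation tests over libraries gave no adjusted p below 0.0794 in 90 tests of 9 members and 10 comparisons. The smallest p each design can give was 0.0357 for 3 against 5 libraries, 0.1 for 3 against 3, 0.00794 for 5 against 5, and 0.2 for 2 against 3, so that none could pass after adjustment.

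UMIs of granzymes, Prf1, and Nkg7 in classes that should lack them set a floor under such shares, and their source was not tested. In naive spleen, B-like cells had a UMI of Gzma in 0.227% to 0.831% of cells, of Gzmb in 0 to 0.0360%, and of Nkg7 in 0.181% to 0.741%, at median depths of 2188 to 2903 UMIs. In rejecting kidney, monocyte or macrophage-like cells had Gzmb in 1.68% to 1.73%, Nkg7 in 2.16% to 2.61%, and Prf1 in 0.365% to 0.478% at 2251 to 2343 UMIs. B-like cells of rejecting kidney (108) had Gzmb at 136 and 303 CPM, and the level of CD4 T-like cells there (142 and 270 CPM) lies within that range and is not read as expression.

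All CD45+ cells of rejecting kidney (5377 and 6571 cells in 2 libraries) and naive spleen (5 libraries) were clustered without the members and named from marker lists. NK-like cells had the highest mean CPM of any named class in 15 of the 18 combinations of member and tissue. The exceptions were Gzmb, Gzmk, and Gzmm in rejecting kidney, where CD8 T-like cells led. In naive spleen the 1431 NK-like cells had 6493 to 8806 CPM of Gzma over the 5 libraries and CD8 T-like cells, 4222 in all, 0.302 to 2.79 CPM, which overlaps the B-like level and is not read as expression. Prf1 was less uneven, with 716 to 893 CPM in NK-like, 44.7 to 61.7 in CD8 T-like, and 18.5 to 23.9 in CD4 T-like cells, and so were Nkg7, with 2033 to 2388, 362 to 470, and 13.6 to 24.6 CPM, and Ctsw, with means of 462, 131, and 19.7 CPM. Naive CD8 T-like cells thus held Nkg7, Ctsw, and Prf1 transcripts but 0.226 to 1.43 CPM of Gzmb and 0 UMIs of Gzmk. This class leaves out an unnamed cluster of 1335 cells, with CD8 T as its best class but leading markers of another. The naive CD8 matrix was not split in this way, and its libraries held 4 to 9 UMIs of Gzmk and 2.74 to 25.6 CPM of Gzma.

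In rejecting kidney the 2 granzymes parted between classes. Gzma had 4141 and 4795 CPM in 567 NK-like cells and 117 and 230 in 1664 CD8 T-like cells, while Gzmb had 611 and 739 CPM in NK-like and 1047 and 1695 in CD8 T-like cells, of which 64.5% and 72.5% held a UMI. Prf1 stood at 794 and 803 CPM in NK-like and 168 and 274 in CD8 T-like cells. A cluster of 565 cells with dividing genes and CD8 T as its best class stayed unnamed and is not in the CD8 T-like class. Nkg7 was almost level, with 1293 and 1623 CPM in NK-like and 1336 and 1427 in CD8 T-like cells. CD4 T-like cells (507) had Gzmb at 142 and 270 CPM and Nkg7 at 703 and 715 CPM, and dendritic-like cells (306) had both serpins, with means of 87.5 CPM for Serpinb6b and 113 for Serpinb9. Gzmm had 7 UMIs in CD8 T-like, 1 in NK-like, and 0 in CD4 T-like cells. In naive spleen the highest Gzmm level, 25.5 to 78.5 CPM, was in a cluster of 1335 cells that the markers did not name. Between the tissues depth, strain, and cluster makeup differ, and no test was run.

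**Figure D5:**
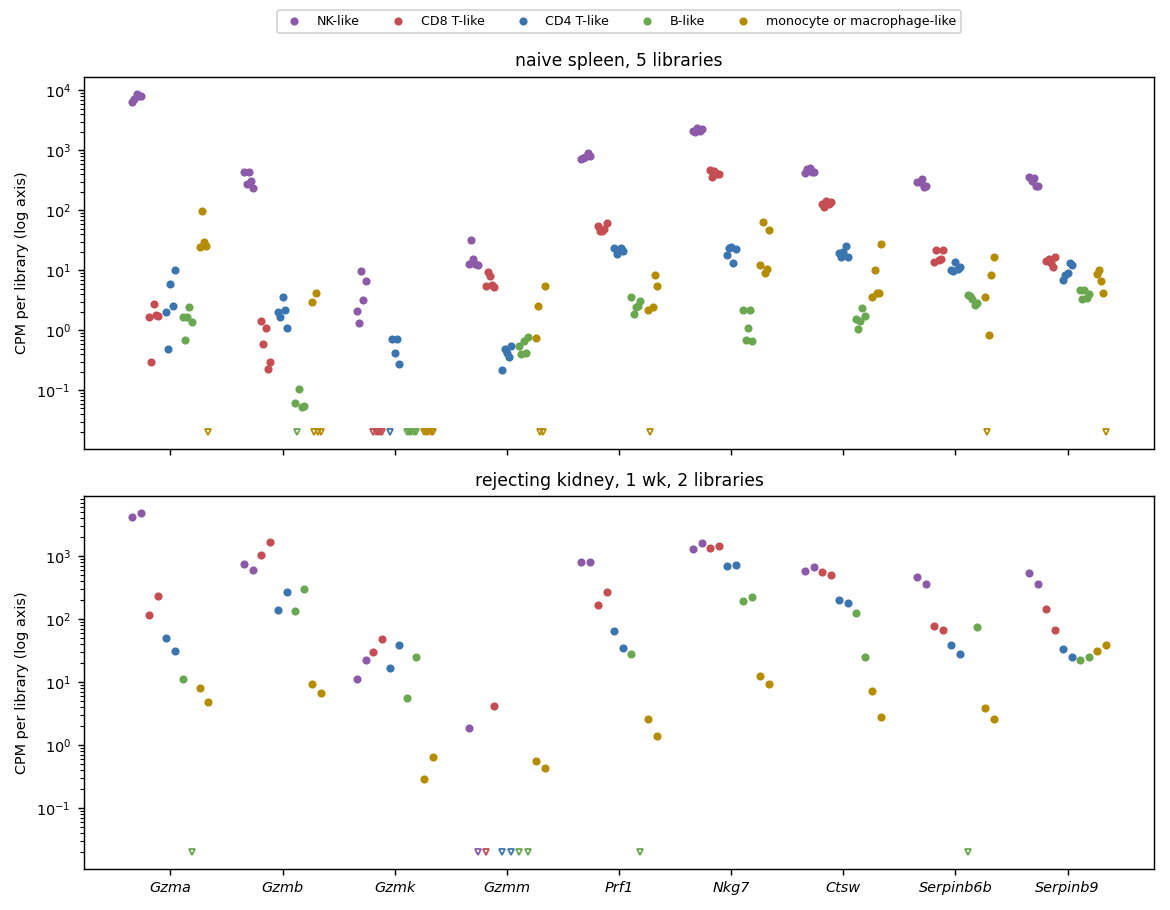
CPM (log axis) of the 9 genes in 5 marker-named classes of all CD45+ cells, for 5 libraries of naive spleen and 2 of rejecting kidney, where each point is a library and open triangles at 0.02 mark 0 UMIs. Gzma is highest in NK-like cells in both tissues (means of 7752 and 4468 CPM), and Gzmb in rejecting kidney is highest in CD8 T-like cells (mean of 1371 CPM).

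Of 26 further genes of granule biogenesis, release, and inhibition, 17 were called higher and 1 lower in accepted kidney than in spleen at 1 week (21 tested), where 27.3% and 24.1% of all genes were, and 18 and 1 at 3 weeks (20 tested), where 47.3% and 20.2% were. From 1 to 3 weeks in the kidney 12 were higher and 4 lower of 21, beside 53.5% and 21.5% of all genes. In rejecting against accepted kidneys 11 were higher and 3 lower of 22, beside 48.8% and 10.5% of all genes, and in spleen at 1 week against naive spleen 7 were higher and 2 lower of 19, beside 25% and 35.2%. Fasl, the death ligand that kills without granules, rose most in the accepted kidney from 1 to 3 weeks, from a mean of 45.2 to 184 CPM (log2 2.03, SE 0.15, adjusted p = 2.9e-08). Serpinb1a, an inhibitor of neutrophil proteases, fell most there, from 11.7 to 2.00 CPM, and it was the one gene of the list called lower in kidney than in spleen at both times. Its direction was that of Gzmm in those 3 comparisons. Gzmf, a granzyme of the Gzmb cluster, had 34.9 CPM in rejecting and 1.57 in accepted kidneys, 22.6-fold (adjusted p = 3.96e-06), and 0 UMIs in the spleens of rejecting recipients. Gzmc had 11.1 CPM in accepted kidneys and 0.276 in spleens at 3 weeks. Serpinb1a, Stx11, and Vamp8, the latter 2 in membrane fusion, were called in all 10 comparisons, Srgn, Lamp2, Serpinb6a, and Fasl in 9, and Ctsc, Cst7, Rab27a, Lyst, and Igf2r in 8. M6pr was called in 7, Lamp1 in 6, and Gzmf, Unc13d, Vamp7, and Calr in 5. Single comparisons called 16.1% to 75% of all genes tested. Ctsc encodes the protease that activates granzymes and Srgn the proteoglycan that holds them in the granule. Gzmd, Gzme, Gzmg, and Gzmn passed the filter on low counts in 0 comparisons. The list's counts include changes in both directions and were not tested as a set.

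Each member's course over the 9 condition means was compared with that of 4428 genes by the root mean square difference of log2(CPM + 1), each gene centered on its own mean. The nearest member was Serpinb6b for Nkg7 (0.32) and for Ctsw (0.36), and Nkg7 for Serpinb9 (0.42). Gzma lay nearest to Gzmk among members (0.83), and Prf1 to Ctsw (0.64). Gzmb lay at least 1.79 from any member, and Gzmm at least 2.29. This distance also grows with how widely a gene's level ranges, and Gzmb ranged most. By rank among the 4428 genes Gzma was number 45 from Gzmb, whereas Prf1, the member nearest to Gzmm, was number 4027 from it. Ctsw was number 568 from Prf1. Among all genes the nearest to Gzmb were Pdcd1 and Lag3, both at 0.92, which encode inhibitory receptors, and Gm156. Those to Nkg7 were Sh2d2a (0.24), Epcam (0.31), and Serpinb6b, and those to Ctsw were Efhd2 (0.19), Slamf7 (0.21), and Cers4 (0.22). The nearest were S100a6, Itgb1, and Gem for Gzma, Nfil3, Tnfrsf1b, and Plscr1 for Gzmk, Gprin3, Slk, and Nfat5 for Prf1, Ctla2a, Ech1, and AW112010 for Serpinb6b, Chst12, Pmepa1, and Sh2d2a for Serpinb9, and Pdlim1, Gramd4, and Rasgrp2 for Gzmm (0.48 to 0.51). These distances describe 9 condition means, which share libraries, depth, and the labels of 24 weeks.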

How the data were processed

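Cells were sorted as viable CD45+ cells and profiled with a 10x Genomics 3′ kit. The authors mapped reads with Cell Ranger to mm10 per the submitters' processing notes (the version is not given in the sources used here), filtered cells by UMIs, mitochondrial content, and detected genes, called cell types, and deposited raw UMI counts per gene and cell without normalization. The depth and precision of each library follow from its UMIs, given in the report. Members and gene lists were chosen with earlier results of these data known.

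UMI counts were summed per library tag of the barcodes within the condition of the sample labels and scaled by plain library totals. Libraries were compared with edgeR 4.0.16 (R 4.3.3), with filterByExpr, its quasi-likelihood test, Benjamini-Hochberg adjustment over all genes tested, and a threshold of 0.05. Each comparison used its own groups, and the 2 interactions used 4 groups each. DESeq2 1.42.0, TMM factors, no filter on low counts, cells with a CD8 UMI and no Cd4 UMI, cells without Mki67 and Top2a UMIs, 1 fit over the 9 conditions, removal of the median shift in 10 groups of intron length, and leaving out each library served as alternatives. On simulated data with 200 genes changed at the depth of accepted kidneys at 3 weeks against 1 week, 80.4% of 2-fold and 100% of 4-fold changes were recovered over 11467 genes. For rejecting against accepted kidneys 34.4% and 81.6% were recovered over 11831 genes.

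For shares and pairs each cell was thinned to 1000 UMIs with a fixed seed, and shares were compared by exact two-sided permutation tests (scipy 1.17.1). CD45+ cells were clustered with scanpy 1.11.5 (2000 variable genes without the members, 30 principal components, 15 neighbors, Leiden resolution 0.8). A cluster was named from fixed markers by a rule set after seeing the data: at least 3 markers in at least 10% of its cells, a mean share of at least 0.4, a second class under 0.75 of the best, and a dividing score under 0.6. The rule also left a cluster unnamed if its leading markers were of another class, if it held both Cd8a and Cd4, or if it was shallow. It left 4 clusters of rejecting kidney and 7 of naive spleen unnamed. Doublets were kept. Scrublet marked 2.34% to 3.09% of cells in naive libraries 2 to 5, but 1 of 5377 and 2 of 6571 cells in rejecting kidney and 1 of 11340 in naive library 1, where it has not worked. CD45+ matrices of other conditions were not used here.

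Every member was described in every condition. Of 26 further pathway genes, those with the greatest called rise and fall in a comparison and those called in at least 5 of 10 comparisons were named, with the 3 genes most like each member among those with at least 50 CPM in a condition.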

Additional observations from a re-analysis of the deposited data

Results flagged for a closer look

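In 8 of 54 sets of 5 libraries a single library lay far from the others by Dixon's criterion, which chance meets in about 1 of 20 independent sets. The same libraries entered both as CPM and as thinned shares, so the sets are not independent. Their number is therefore not set against chance. In recipient spleens at 3 weeks, Gzmk was 5.78 CPM in library 1 against 1.94 to 2.64 CPM in the others, and after thinning it was seen in 0.766% of cells against 0.216% to 0.310%. In accepted kidneys at 3 weeks, library 1 had 607 CPM of Ctsw against 786 to 817 CPM, with a UMI of Ctsw in 44.7% of thinned cells against 52.6% to 54.0%, and of Nkg7 in 92.8% against 94.8% to 95.6%. The Nkg7 share was also low in naive spleen library 2 (29.9% against 34.6% to 36.0%) and in spleen library 5 at 3 weeks (23.7% against 27.0% to 28.1%). The Gzmk share was 0.513% in naive spleen library 5 against 0 to 0.105% in the others.

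The change from 1 to 3 weeks differed between accepted kidney and recipient spleen in the interaction test of edgeR for 7 members, by 1.69 for Gzma, 3.95 for Gzmb, 1.11 for Gzmk, −1.90 for Gzmm, 0.54 for Prf1, 1.29 for Nkg7, and 0.82 for Ctsw on the log2 scale. The same test called 40.1% of 12319 genes. With DESeq2 the calls of Gzma, Gzmk, and Prf1 were lost (adjusted p = 0.138, 0.0801, and 0.0676). The difference between kidney and spleen at 1 week was 1.19 larger in rejecting than in accepted mice for Prf1, a call that several settings ended.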

How the results depend on the processing

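No label pairs kidney and spleen libraries, but their barcode tags share numbers, and a replicate block by tag was added after seeing the data. Deviations of same-tag libraries from their group means correlated at 0.0595 to 0.246 over 3 pairs at 1 week, 0.0304 to 0.345 over 5 at 3 weeks, and 0.0525 to 0.160 over 3 under the 24-week labels. Libraries with different tags correlated at −0.203 to 0.0968, −0.213 to 0.106, and −0.126 to 0.0416. Some same-tag values were low, and the tags were not taken as pairs, but these values do not settle whether they are. In rejecting mice both shared tags lay at −0.0314 and −0.0196. Every library correlated best with its own tag under the 24-week labels. At 1 week 3 kidney and 2 spleen libraries of 3 each did, and at 3 weeks 3 kidney and 3 spleen libraries of 5 each. With the block 9, 9, and 9 members were called in kidney against spleen at 1, 3, and 24 weeks as without it (6380 of 11707, 7741 of 10944, and 5517 of 10381 genes), 7 in rejecting mice (without Serpinb6b, 920 of 8205 genes), and 8 in the interaction over time (with Serpinb9, 5397 of 12319 genes). In the interaction with rejection 1 was called (186 of 13135 genes), Gzma (−1.34, adjusted p = 0.0377) in place of Prf1 (1.09, adjusted p = 0.0669), and Serpinb9 turned to −0.31. Of 720 values of single members under settings other than leaving out a library, 654 kept direction and side of the threshold, 15 lost and 27 gained a call, and 24 turned direction, of which 0 had been called. Of 891 values with 1 library left out, these numbers were 822, 24, 15, and 30, again with 0 called among the turned. The causes were not tested.

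In the accepted kidney at 3 against 1 week, Gzmb turned to −0.16 with TMM factors and −0.16 with DESeq2, and Gzma to 0.22 without dividing cells. With 1 library left out, 5 to 7 members were called there against 5, and Gzma ranged from −0.57 to 0.025 and Gzmk from −0.32 to 0.051. In the spleen over the same weeks 6 were called in each such fit, Gzmm ranged from −0.20 to 0.04, Ctsw from −0.13 to 0.014, and Serpinb9 from −0.0039 to 0.45. For spleen at 1 week against naive spleen 5 to 6 were called against 6, Serpinb9 turned to 0.051 with TMM factors and 0.047 with DESeq2 and ranged from −0.32 to 0.13, Gzmm ranged from −0.046 to 0.19, and Ctsw from −0.011 to 0.13.

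In rejecting against accepted kidneys 4 members were called, but 7 with TMM factors, 7 with DESeq2, and 2 to 6 with 1 library left out. Of the 12533 genes tested 59.3% were called with plain totals, and 3443 were called higher and 3222 lower with TMM factors. With TMM factors Gzmk was −0.67, Ctsw −0.61, and Serpinb9 −0.30, and with DESeq2 −0.69, −0.62, and −0.32. Gzmk was also −0.040 in cells with a CD8 UMI and no Cd4 UMI, −0.16 without dividing cells, and −1.06 with the intron-length shift removed. Left-out libraries gave −0.45 to 0.36 for Gzmk, −0.063 to 0.21 for Ctsw, and −0.29 to 0.85 for Serpinb9. In rejecting kidney against spleen 5 to 8 were called with 1 library left out, and Gzma ranged from −0.41 to 0.74.

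For the interaction over time, where edgeR called 40.1% of 12319 genes, 4 members were called with DESeq2 in place of 7, and 6 to 8 with 1 library left out. For the interaction with rejection 1 was called, but 2 without a filter on low counts, 2 with DESeq2, 2 without dividing cells, 3 in 1 fit over the 9 conditions, which pools the spread of all libraries, and 0 to 3 with 1 library left out. Values that turned there were −0.012 for Gzmk with TMM factors, −0.031 with DESeq2, and −0.15 with the intron-length shift removed, 0.42 for Ctsw in cells with a CD8 UMI and no Cd4 UMI, 0.14 without dividing cells, and 0.0056 in 1 fit, 0.50 for Gzma and 0.10 for Serpinb6b without dividing cells, and −0.007 for Serpinb9 with the intron-length shift removed. Left-out libraries gave −0.29 to 0.75 for Gzmk, −0.26 to 0.14 for Ctsw, −0.62 to 0.15 for Serpinb6b, and −0.40 to 0.81 for Serpinb9. The pairs above expectation in every accepted kidney library at 3 weeks numbered 18 without thinning against 7. The number of combinations of member and tissue led by NK-like cells was 15 under every Leiden resolution tried and without doublets. Members with few UMIs, above all Gzmm in kidneys, are limited by counting error.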
